A study of Mus musculus with 2 samples.

Results

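The enzymes that make, balance and remove deoxynucleotides, the building blocks of DNA, were followed at the RNA level in mouse leukaemia cells. The 9 genes were given by name, and each was found by its Ensembl identifier among the 45318 genes of the deposited table. They are Rrm1 and Rrm2, the subunits of ribonucleotide reductase, Tyms and Dtymk, which make and phosphorylate thymidylate, the deoxynucleoside kinases Tk1 and Dck, and the hydrolases Dut, Dctpp1 and Samhd1. All 9 passed the filter of a mean of at least 1 CPM (counts normalised to library size), as did 11504 genes in all.

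The cells were GFP-positive leukaemia blasts that carry the MLL/AF9 fusion, a driver of acute myeloid leukaemia, sorted from the bone marrow of leukaemic C57Bl/6 mice. One group of mice had received brequinar, an inhibitor of dihydroorotate dehydrogenase in de novo pyrimidine synthesis, and the other vehicle before the marrow was taken. There was 1 library for each treatment, so no difference has a replicate check and no p-value is given. The sources used here state neither the dose, the duration of treatment, the age of the mice nor how many animals each library pools. Gene counts summed to 47950714 in the brequinar library and 47935476 in the vehicle library. Intervals are exact 95% intervals of counting error alone. They do not cover the spread between animals or sorts, and reads amplified without molecular identifiers can make them too narrow.

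Ribonucleotide reductase removes an oxygen from ribonucleoside diphosphates, and so turns RNA precursors into DNA precursors. Thymidylate, which RNA does not need, is made from dUMP by thymidylate synthase with a folate cofactor, while kinases of the salvage route recover deoxynucleosides from outside the cell. Hydrolases hold the pools in balance, and SAMHD1, which is abundant in human myeloid cells, splits deoxynucleoside triphosphates and also the active form of cytarabine, a drug used against acute myeloid leukaemia that DCK activates.

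Samhd1 was the single member that the brequinar library held at a level at least 2-fold higher, and none was at least 2-fold lower. Among all genes tested 6.45% were at least 2-fold higher and 4.4% at least 2-fold lower, so 1 of 9 is not a result about the group. At 1.5-fold, 4 of 9 members were higher (Samhd1, Dck, Rrm2 and Tyms), beside 12.7% of all genes, and 1 was lower (Dctpp1), also beside 12.7%. Ratios above 0 on the log2 scale were found for 7 of 9 members and 50.1% of all genes. The median log2 ratio of brequinar over vehicle was 0.19 over the members, with a range from -0.78 to 1.42, and 0.00 over all genes, whose middle range ran from -0.30 to 0.29 (quartiles). The members therefore did not move as a block. In sorted bulk cells, more cells of a type and more RNA per cell cannot be told apart, in any of these values.

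**Figure D1:**
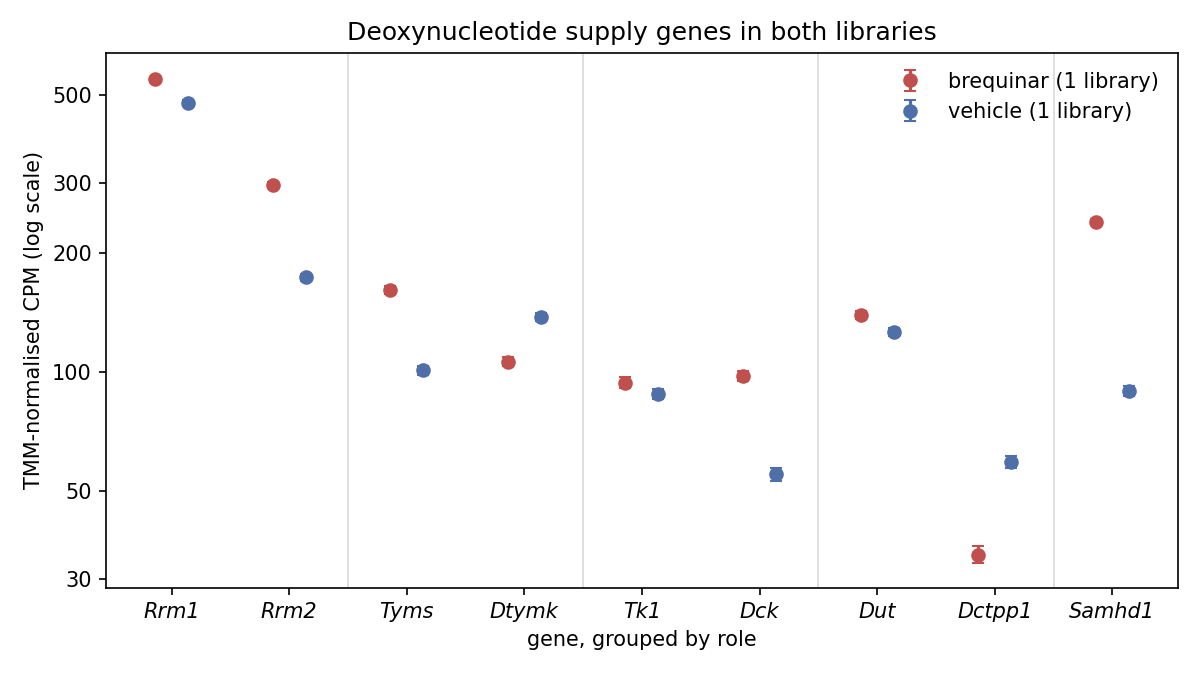
TMM-normalised CPM (log axis) of the 9 deoxynucleotide supply genes, grouped by role, in the brequinar library (left point of each pair) and the vehicle library (right point), with exact 95% counting intervals that are often smaller than the points. Samhd1 stands at 239 CPM in the brequinar library and 89.5 CPM in the vehicle library, while Dctpp1 and Dtymk are lower in the brequinar library.

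The sequences upstream of the 4 members with the largest absolute ratios are shown because these genes set the spread of the group. Each runs 5′ to 3′ on the gene's strand, from RefSeq on GRCm38.p6, and stops before the outermost annotated start, so Samhd1 (chr2:157135266-157135346, minus strand) is short. The others are Dck (chr5:88764763-88764995, plus strand), Rrm2 (chr12:24708004-24708240, plus strand) and Dctpp1 (chr7:127260710-127260917, minus strand). Capitals mark matches to the motifs named after the sequences.
Samhd1: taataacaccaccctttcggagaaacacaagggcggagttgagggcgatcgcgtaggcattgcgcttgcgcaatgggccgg
Dck: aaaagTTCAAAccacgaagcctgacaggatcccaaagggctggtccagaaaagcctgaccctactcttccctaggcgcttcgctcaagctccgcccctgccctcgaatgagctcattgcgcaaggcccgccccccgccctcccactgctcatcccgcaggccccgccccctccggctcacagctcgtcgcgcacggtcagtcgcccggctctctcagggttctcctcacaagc
Rrm2: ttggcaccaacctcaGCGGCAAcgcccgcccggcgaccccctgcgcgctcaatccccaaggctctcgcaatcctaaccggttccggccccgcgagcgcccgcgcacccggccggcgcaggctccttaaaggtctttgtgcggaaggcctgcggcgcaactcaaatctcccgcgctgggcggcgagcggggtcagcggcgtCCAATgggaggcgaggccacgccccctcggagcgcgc
Dctpp1: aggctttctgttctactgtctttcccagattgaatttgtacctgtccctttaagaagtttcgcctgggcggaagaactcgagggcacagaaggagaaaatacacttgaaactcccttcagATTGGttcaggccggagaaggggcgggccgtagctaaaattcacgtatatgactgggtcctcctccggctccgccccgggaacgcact

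Motifs were searched on both strands in windows of 250 bases before to 50 after each RefSeq start, found for 9 of 9 members. An E2F-type word (TTNNCGC, where each N is C or G) was present in 3 of 9 members (Dtymk, Rrm1 and Rrm2) and in 9.57% of 32817 windows. The CCAAT word was present in 4 of 9 (Dctpp1, Dtymk, Rrm1 and Rrm2) and in 37.4% of windows. The cell cycle word TTTGAA was present in 1 of 9 (Dck) and in 17.9% of windows. No word overlapped another in the printed stretches. The E2F-type word lay before members with ratios on both sides of 0, namely Rrm2 (log2 ratio 0.77), Rrm1 (0.19) and Dtymk (-0.38). A match of letters is a description of the window and not evidence of a bound site.

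Among the subunits of ribonucleotide reductase, the small one differed more than the large one. Rrm1 (ENSMUSG00000030978.9; chromosome 7, 102441695 to 102469771, plus strand, GRCm38), the gene of the catalytic subunit, had 25435 counts (548 CPM) in the brequinar library and 23680 counts (479 CPM) in the vehicle library. The ratio was 1.14 (interval 1.12 to 1.16), and 32.1% of all genes had a higher one. Rrm2 (ENSMUSG00000020649.8; chromosome 12, 24708241 to 24714146, plus strand) encodes the radical-bearing subunit, which cells make in S phase and degrade afterwards. It had 13784 counts (297 CPM) in the brequinar library and 8582 counts (173 CPM) in the vehicle library, a ratio of 1.71 (interval 1.67 to 1.76) that 8.91% of genes exceeded.

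The balance between the subunit genes can be read within each library, free of the scaling. For every Rrm1 count there were 0.542 Rrm2 counts in the brequinar library and 0.362 in the vehicle library, so the count ratio was 1.5 times as large (interval 1.45 to 1.54). Per base of the longest annotated coding transcript, the Rrm2 to Rrm1 ratio was 0.988 in the brequinar library and 0.661 in the vehicle library. Per base of merged exons it was 2.15 in the brequinar library and 1.44 in the vehicle library, so which subunit gene had the higher level depends on the length taken. Rrm2b, the p53-induced small subunit that serves DNA repair and mitochondrial DNA outside S phase, stood at 30.2 and 19.9 CPM in the brequinar and vehicle libraries, a ratio of 1.52 (interval 1.40 to 1.65). It stayed scarce beside Rrm2, with 0.102 Rrm2b counts per Rrm2 count in the brequinar library and 0.115 in the vehicle library. Pseudogenes copy parts of these genes: Gm48445 matches Rrm2 at 98.4% identity over 193 bases, Gm48455 at 95.5% over 419 bases, and Gm8616 matches Rrm2b at 96.1% over 1051 bases, so some of their reads can be lost to multimapping. Rrm2b also shares 734 exonic bases with Gm49085 on the opposite strand.

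Reductants, only some of which feed the enzyme directly, were also measured in a list that includes Rrm2b. Of the 8 genes in this list, 1 passed 2-fold upwards and none downwards (median log2 ratio 0.34). The one past 2-fold was Glrx, glutaredoxin 1, at 171 CPM in the brequinar library and 69.3 CPM in the vehicle library (2.47-fold, interval 2.37 to 2.57). Gsr, glutathione reductase, stood at 974 CPM in the brequinar library and 643 CPM in the vehicle library.

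In the thymidylate branch, the synthase and the kinase that follows it differed in opposite directions. Tyms (ENSMUSG00000025747.9; chromosome 5, 30058202 to 30073617, minus strand), thymidylate synthase, had 7474 counts (161 CPM) in the brequinar library and 4998 counts (101 CPM) in the vehicle library. Its ratio was 1.59 (interval 1.54 to 1.65), which 10.6% of genes exceeded. A pseudogene (Gm49183) copies 120 bases of Tyms at 96.7% identity. Dtymk (ENSMUSG00000026281.12; chromosome 1, 93792576 to 93801934, minus strand), which phosphorylates dTMP from either route, had 4939 counts (106 CPM) in the brequinar library and 6830 counts (138 CPM) in the vehicle library. It was 1.30-fold lower (interval 1.25 to 1.35), and 20.9% of genes had a lower ratio. The Tyms to Dtymk count ratio was 1.51 in the brequinar library and 0.732 in the vehicle library, a 2.07-fold difference (interval 1.96 to 2.18).

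Of 5 genes that serve thymidylate synthase, through the folate cycle or, for Dctd, its substrate, 1 had a log2 ratio above 0 and 4 below it. None of these passed 2-fold, and their median log2 ratio was -0.23. Dctd, which makes dUMP from dCMP, stood at 14.2 CPM in the brequinar library and 21.8 CPM in the vehicle library, a ratio of 0.652 (interval 0.591 to 0.719). Shmt1, cytosolic serine hydroxymethyltransferase, stood at 54.5 CPM in the brequinar library and 78.8 CPM in the vehicle library, and Shmt2, its mitochondrial counterpart, at 164 and 193 CPM in the same order.

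Between the salvage kinases the larger ratio belonged to Dck. Dck (ENSMUSG00000029366.10; chromosome 5, 88764996 to 88783281, plus strand), which phosphorylates deoxycytidine, deoxyadenosine and deoxyguanosine, had 4531 counts (97.5 CPM) in the brequinar library and 2737 counts (55.3 CPM) in the vehicle library. Its ratio was 1.76 (interval 1.68 to 1.85), which 8.34% of genes exceeded. Tk1 (ENSMUSG00000025574.10; chromosome 11, 117815526 to 117826092, minus strand), the cytosolic thymidine kinase of cycling cells, had 4372 counts (94.1 CPM) in the brequinar library and 4354 counts (88.0 CPM) in the vehicle library. Its ratio was 1.07 (interval 1.03 to 1.12), or 0.10 on the log2 scale, and scaling by total counts alone gave a log2 ratio of 0.0055. The Dck to Tk1 count ratio was 1.04 in the brequinar library and 0.629 in the vehicle library, 1.65 times as large (interval 1.55 to 1.76). Tk1 shares 83 exonic bases with Afmid on the opposite strand, where Afmid had 42 and 41 counts in the brequinar and vehicle libraries, and a pseudogene (Gm6091) copies 165 of its bases at 99.4% identity.

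The mitochondrial kinases lay on opposite sides of 0, both closer to it than Dck. Tk2, mitochondrial thymidine kinase, stood at 24.7 CPM in the brequinar library and 21.5 CPM in the vehicle library. Dguok, deoxyguanosine kinase, stood at 12.6 CPM in the brequinar library and 15.0 CPM in the vehicle library. None of the 5 tested genes of mitochondrial deoxynucleotide supply passed 2-fold (median log2 ratio -0.16); Slc25a33, a pyrimidine nucleotide carrier, had the largest ratio, 1.19 (interval 0.973 to 1.46).

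The hydrolases spanned the whole range of the members. Dut (ENSMUSG00000027203.12; chromosome 2, 125247190 to 125258608, plus strand), which removes dUTP and supplies dUMP, had 6481 counts (140 CPM) in the brequinar library and 6255 counts (126 CPM) in the vehicle library, a ratio of 1.10 (interval 1.07 to 1.14). Dctpp1 (ENSMUSG00000042462.4; chromosome 7, 127256959 to 127260709, minus strand), a pyrophosphatase of dCTP and its modified forms, had 1608 counts (34.6 CPM) in the brequinar library and 2940 counts (59.4 CPM) in the vehicle library. It was 1.72-fold lower (interval 1.61 to 1.83), and 7.55% of genes had a lower ratio. The Dctpp1 to Dut count ratio was 0.248 in the brequinar library and 0.470 in the vehicle library.

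Ung, uracil-DNA glycosylase, removes the uracil that enters DNA where dUTP escapes Dut. It was the single gene of 34 replication genes past 2-fold, and it was lower (20.4 CPM in the brequinar library and 42.9 CPM in the vehicle library; 2.10-fold, interval 1.95 to 2.27). The Dut to Ung count ratio was 6.84 in the brequinar library and 2.95 in the vehicle library, 2.32 times as large (interval 2.13 to 2.52).

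Samhd1 (ENSMUSG00000027639.13; chromosome 2, 157097533 to 157135265, minus strand), the triphosphohydrolase, had 11113 counts (239 CPM; interval 235 to 244) in the brequinar library and 4428 counts (89.5 CPM; interval 86.9 to 92.2) in the vehicle library. The gene was 2.67-fold higher (interval 2.58 to 2.77), and 4.01% of genes had a higher ratio. The stretch printed for it holds none of the motifs searched. No other annotated gene shares its exons, and no annotated pseudogene transcript matched it at 95% identity over 101 bases, the read length. Set against the synthesising enzyme, there were 0.437 Samhd1 counts per Rrm1 count in the brequinar library and 0.187 in the vehicle library, which is 2.34 times as large (interval 2.25 to 2.43). Against Rrm2 the count ratio was 0.806 in the brequinar library and 0.516 in the vehicle library, 1.56 times as large (interval 1.5 to 1.63). Dck and Samhd1 act on cytarabine in opposite ways, and the Dck to Samhd1 count ratio was 0.408 in the brequinar library and 0.618 in the vehicle library. The pairs of genes set against each other here were chosen with their values known.

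**Figure D2:**
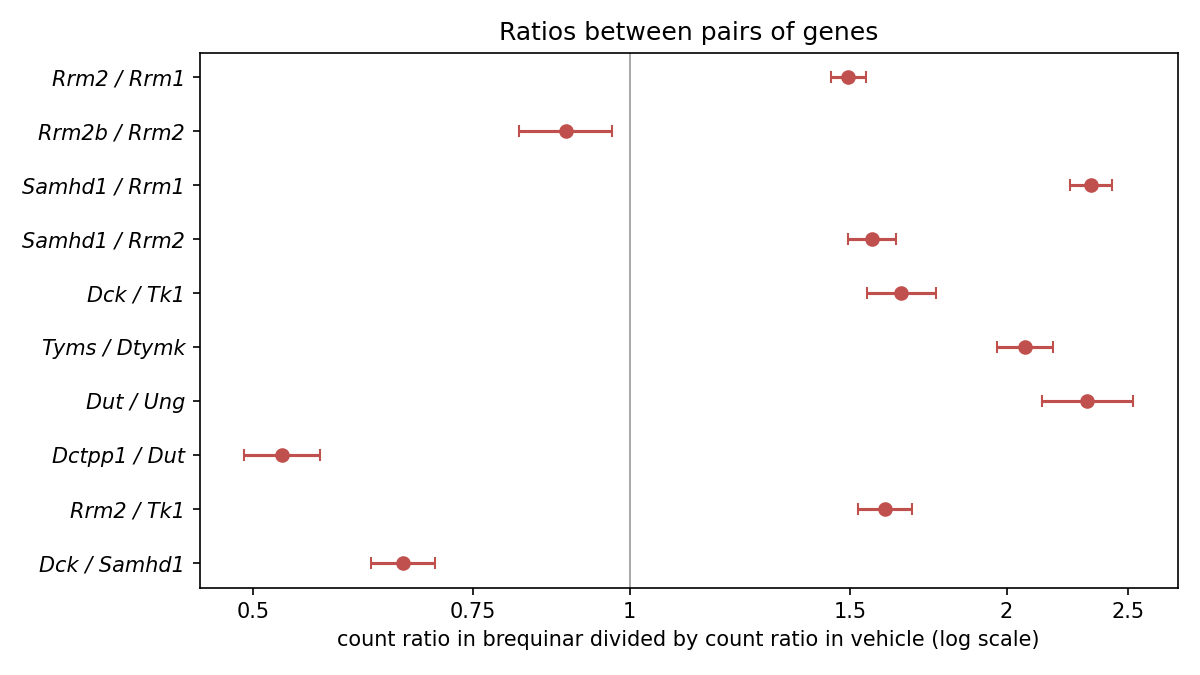
For each pair of genes, the ratio of their counts in the brequinar library divided by the same ratio in the vehicle library (log axis), with large-sample 95% intervals of counting error. The ratio of Samhd1 to Rrm1 (2.34) and of Dut to Ung (2.32) differ most upwards, and that of Dctpp1 to Dut (0.528) most downwards.

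Levels of different genes can be compared only per length. Per kilobase of the longest coding transcript, Rrm1 (137 CPM per kilobase), Rrm2 (135) and Dtymk (101) led in the brequinar library, while Dtymk (131), Rrm1 (120) and Dctpp1 (87.9) led in the vehicle library. Dck was the lowest member in both by this length, with 31.7 CPM per kilobase in the brequinar library and 18.0 in the vehicle library. Over merged exons the lowest was Tk1 in the brequinar library (18.1) and Samhd1 in the vehicle library (9.78). Samhd1 lay at 60.9 CPM per kilobase in the brequinar library and 22.8 in the vehicle library. The order depends on the length taken: over merged exons Rrm1 had 49.7 CPM per kilobase in the brequinar library and 43.5 in the vehicle library, below Rrm2 in both (107 and 62.6 in the same order). Merged-exon lengths ran from 676 bases for Dctpp1 to 11012 bases for Rrm1.

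**Figure D3:**
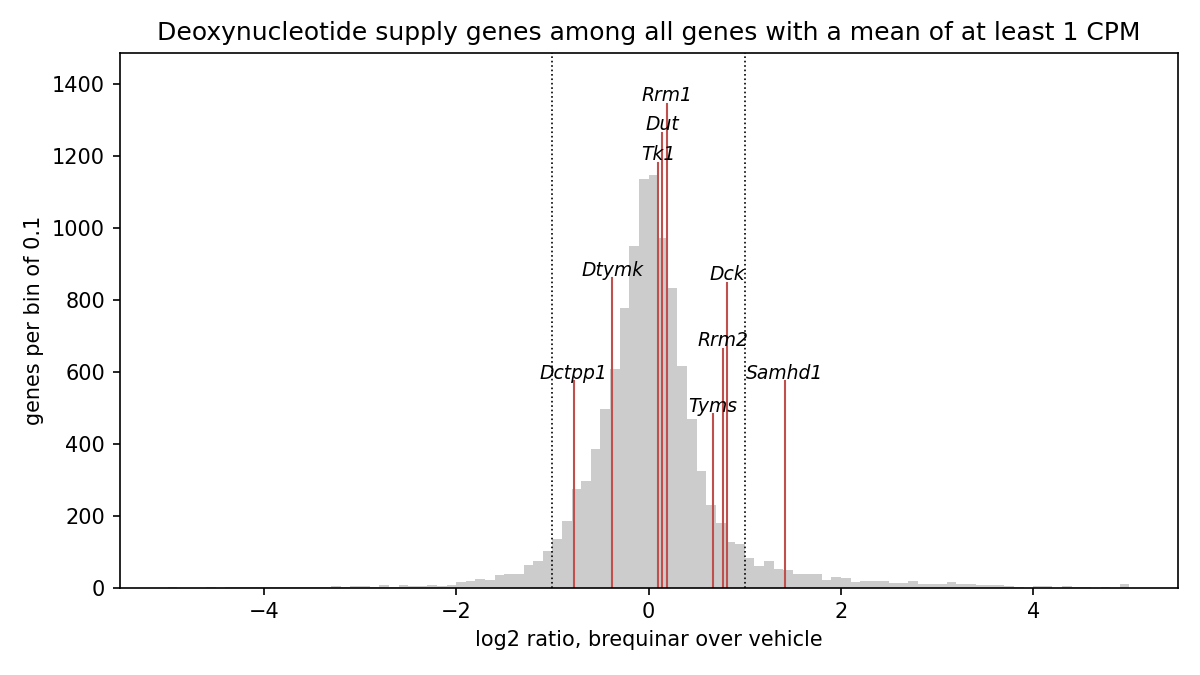
Histogram of log2 ratios (brequinar over vehicle) of the 11504 genes tested, in bins of 0.1, with values beyond the axis gathered in the end bins; red lines mark the 9 members at heights chosen for legibility and dotted lines mark 2-fold. Samhd1 (1.42) alone lies outside the dotted lines, and Dctpp1 (-0.78) and Dtymk (-0.38) lie left of 0.

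Several of these genes are known as S phase genes driven by E2F factors, so they were set beside the replication machinery. The 34 replication genes had a median log2 ratio of -0.02, with values from -1.07 to 0.38. Rrm2, Tyms, Dck and Samhd1 each had a higher ratio than all 34 of them. Rrm1 was exceeded by 7, Dut by 9 and Tk1 by 10 of the 34. Dtymk was exceeded by 32 and Dctpp1 by 33, with Ung the single gene below Dctpp1. As a share of the summed CPM of the replication genes, Rrm2 made 5.17% in the brequinar library and 2.95% in the vehicle library, and Rrm1 made 9.55% in the brequinar library and 8.15% in the vehicle library. Cdt1, a licensing factor, stood at 69.0 CPM with brequinar and 93.8 CPM with vehicle, and Rfc4, a clamp loader subunit, at 81.9 CPM with brequinar and 63.0 CPM with vehicle.

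Genes of G2 and mitosis gave another yardstick. All 18 lay above 0 on the log2 scale (median 0.59), none past 2-fold; Aurka, Plk1 and Nusap1 stood at 164, 129 and 179 CPM in the brequinar library and at 90.1, 73.5 and 104 CPM in the vehicle library. Rrm2 lay 0.18 above this median on the log2 scale, Dck 0.23, Tyms 0.08 and Samhd1 0.83, while Rrm1, Dut, Tk1, Dtymk and Dctpp1 lay below it. Among 14 E2F and G1/S regulators 1 was at least 2-fold higher and none at least 2-fold lower (median 0.44). This was E2f2, at 117 CPM in the brequinar library and 42.2 CPM in the vehicle library (2.77-fold, interval 2.63 to 2.91), followed by the cyclin genes Ccne2 (103 CPM with brequinar and 53.4 CPM with vehicle) and Ccne1 (24.2 CPM with brequinar and 14.1 CPM with vehicle). Ccnf, whose product marks Rrm2 for degradation, stood at 108 CPM in the brequinar library and 70.8 CPM in the vehicle library. None of 9 replication checkpoint genes passed 2-fold (median 0.05), where Timeless stood at 60.5 CPM with brequinar and 81.8 CPM with vehicle, Chek1 at 54.1 and 42.2 CPM, and Atr at 41.7 and 53.4 CPM in the same order.

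**Figure D4:**
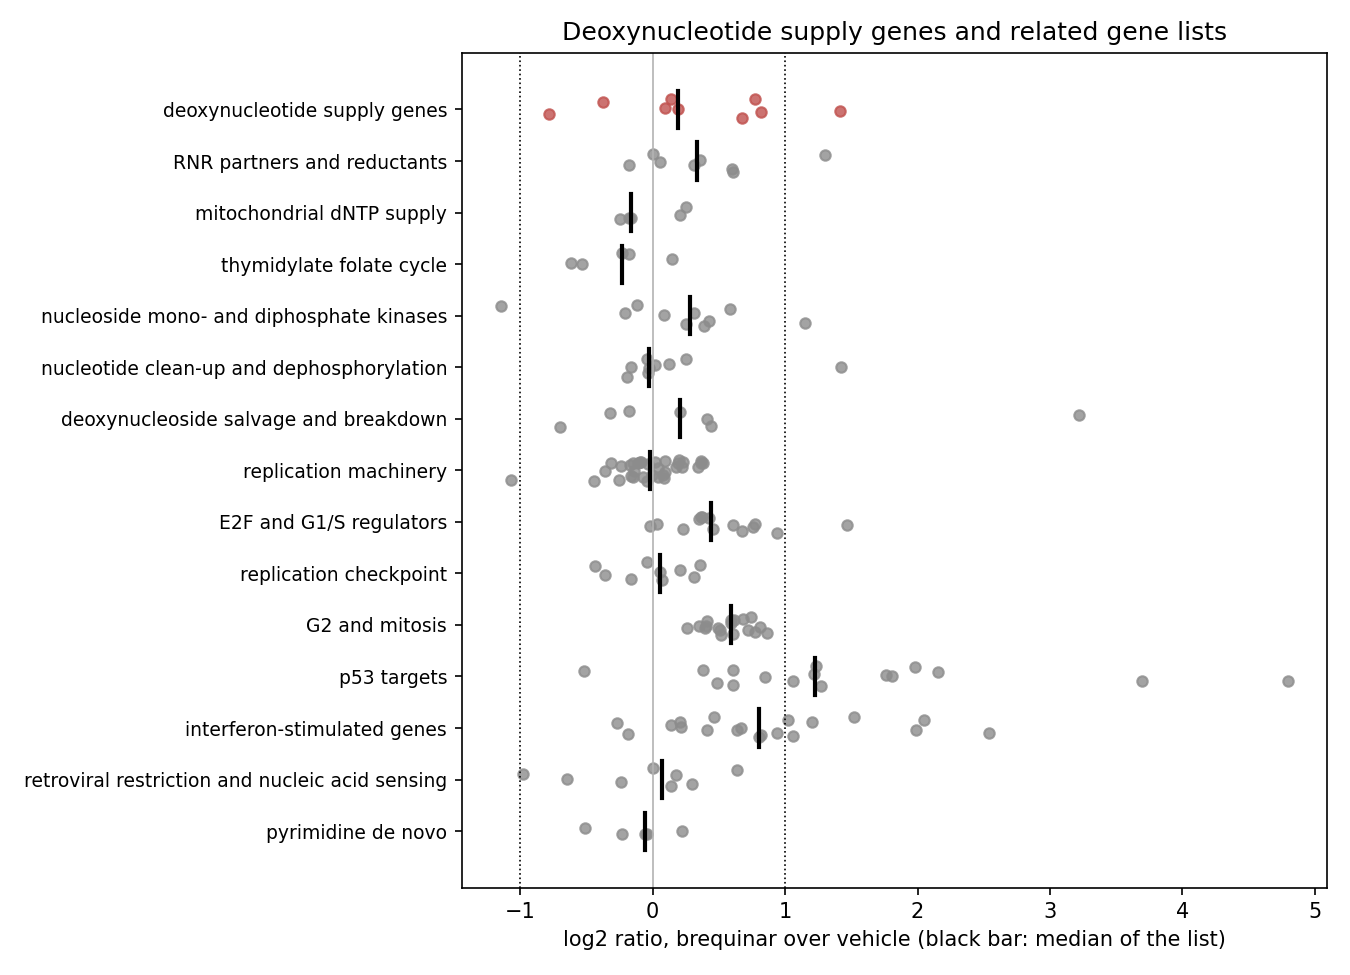
Log2 ratios (brequinar over vehicle) of the deoxynucleotide supply genes (red) and of 14 related lists (grey), 1 point per gene that passed the filter, with small vertical scatter for legibility; black bars are list medians and dotted lines mark 2-fold. The members spread from -0.78 to 1.42, wider than the replication genes, whose points other than Ung lie within 0.45 of 0.

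Later kinases and the clean-up enzymes were mostly within 2-fold. Of 10 tested mono- and diphosphate kinases, Cmpk2 was higher and Nme4 lower by at least 2-fold, with a median of 0.28. Cmpk2, a mitochondrial pyrimidine kinase known to follow interferon, stood at 64.4 CPM in the brequinar library and 28.9 CPM in the vehicle library (2.23-fold, interval 2.09 to 2.37). Nme4, a mitochondrial diphosphate kinase, stood at 16.0 CPM in the brequinar library and 35.5 CPM in the vehicle library (2.21-fold lower, interval 2.03 to 2.41), and Ak6 at 22.5 and 15.0 CPM in the same order. Ak6 shares 1564 exonic bases with Taf9 on the same strand, which makes its level uncertain. Nme3 is listed at 0 in both libraries and shares 763 exonic bases with Mrps34, so its level cannot be read here.

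Of 9 tested genes of nucleotide clean-up, 4 had log2 ratios above 0 and 5 below it, with a median of -0.03. Among these, 1 was at least 2-fold higher and none at least 2-fold lower. The higher one was Nt5e, which encodes the ectonucleotidase CD73 (8.78 CPM in the brequinar library and 3.25 CPM in the vehicle library). Nt5c3 stood at 45.2 CPM with brequinar and 37.9 CPM with vehicle, and Nudt18 at 17.3 and 19.8 CPM in the same order. Of 7 tested genes of deoxynucleoside salvage and breakdown, 4 had log2 ratios above 0 and 3 below it. Among these, 1 was at least 2-fold higher and none at least 2-fold lower. This was Upp1, a uridine phosphorylase, with 86 counts in the brequinar library and 8 in the vehicle library (11.5-fold, interval 5.56 to 27.4). Slc29a2, a nucleoside transporter, stood at 3.34 CPM with brequinar and 5.46 CPM with vehicle, and Pgm2 at 61.8 and 45.6 CPM in the same order. The de novo pyrimidine genes, which supply the substrates upstream, had none of 5 past 2-fold (median -0.06). Dhodh, the gene of the inhibited enzyme, was at 26.3 CPM with brequinar and 37.5 CPM with vehicle, Cad at 141 and 165 CPM, and Ctps2 at 94.2 and 80.9 CPM in the same order.

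Samhd1 and Cmpk2 are known to be interferon-responsive in some cells, and Rrm2b is a p53 target, so those programmes were measured alongside. Of 19 tested interferon-stimulated genes 7 passed 2-fold upwards and none downwards (median 0.81), led by Ifit3 (2.67 CPM with brequinar and 0.424 CPM with vehicle), Gbp2 (87.9 and 21.2 CPM) and Zbp1 (38.3 and 9.62 CPM, in the same order). None of 8 tested genes of nucleic acid sensing and retroviral restriction, whose human counterparts include several that share a disease with SAMHD1, passed 2-fold (median 0.07). In that list Apobec3, a cytidine deaminase, stood at 9.56 CPM with brequinar and 18.9 CPM with vehicle, Rnaseh2a at 43.1 and 67.5 CPM, and the RNA sensor gene Ifih1 at 75.8 and 48.7 CPM in the same order. Trex1 is listed at 0 in both libraries and shares all of its 1147 exonic bases with Atrip on the same strand, so its level cannot be read here. Of 16 tested p53 targets 10 were at least 2-fold higher and none at least 2-fold lower (median 1.22). They were led by Phlda3 (11.2 CPM with brequinar and 0.364 CPM with vehicle), Cdkn1a (330 and 25.5 CPM) and Trp53inp1 (53.9 and 12.0 CPM, in the same order). Rrm2b, with a log2 ratio of 0.60, lay below the median of that list.

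Summed markers of maturing neutrophils, monocytes and macrophages, erythroid cells and megakaryocytes were higher in the brequinar library, as Samhd1 was. Those of mast cells, basophils and eosinophils were also higher, by the least. Those of progenitors, B and plasma cells, T and NK cells, and endothelial and stromal cells were lower. Maturing neutrophil markers were at least 2-fold higher in 13 of 14 cases, and their summed level was 25458 CPM in the brequinar library and 1974 CPM in the vehicle library, led by Mmp9 (753 CPM with brequinar and 27.3 CPM with vehicle) and S100a9 (9365 and 459 CPM in the same order). Monocyte and macrophage markers were at least 2-fold higher in 7 of 14 cases, and all 14 log2 ratios lay above 0. Their summed levels were 1735 and 1440 CPM in the brequinar and vehicle libraries. They were led by Mrc1 (9.99 CPM with brequinar and 0.647 CPM with vehicle) and Cd163 (5.94 and 0.465 CPM in the same order). Erythroid markers (482 CPM with brequinar and 245 CPM with vehicle) were at least 2-fold higher in 13 of 14 tested cases. All 14 log2 ratios lay above 0. Car1 stood at 9.32 CPM in the brequinar library and 0.424 CPM in the vehicle library, and Trim10 at 2.17 and 0.222 CPM in the same order. Both tested megakaryocyte markers, Gp9 and Itga2b, were higher. All 8 listed megakaryocyte and platelet markers summed to 11.0 CPM with brequinar and 3.35 CPM with vehicle. Of these sums, 6 genes below the filter made 3.85 and 0.687 CPM in the same order. Ppbp and Gp1ba were at 0 in the vehicle library.

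Progenitor markers (3746 CPM with brequinar and 10372 CPM with vehicle) were at least 2-fold lower in 6 of 11 cases. Of the log2 ratios, 10 lay below 0 and 1 above it. The lower ones were led by Mpo (979 CPM with brequinar and 5912 CPM with vehicle) and Irf8 (13.8 and 51.5 CPM in the same order). Hoxa9 and Meis1, defining factors of MLL/AF9 leukaemia, were present in both libraries, at 231 and 87.4 CPM with brequinar and 238 and 71.6 CPM with vehicle. B and plasma cell markers summed to 45.1 CPM with brequinar and 92.1 CPM with vehicle. Of 6 tested, 1 was at least 2-fold higher (Vpreb1) and 2 at least 2-fold lower, among them Cd79b. Their log2 ratios lay above 0 in 2 cases and below it in 4. T and NK markers summed to 11.2 CPM with brequinar and 24.6 CPM with vehicle, where Nkg7, the single one tested, was lower and made up most of the sum (7.45 CPM with brequinar and 22.05 CPM with vehicle). The other 11 T and NK markers were below the filter and summed to 3.70 CPM with brequinar and 2.53 CPM with vehicle, the opposite direction. Mast cell, basophil and eosinophil markers summed to 241 CPM with brequinar and 215 CPM with vehicle. Of 8 tested, 2 were at least 2-fold higher, among them Ccr3, and 1 at least 2-fold lower (Prg3). Their log2 ratios lay above 0 in 6 cases and below it in 2. Endothelial and stromal markers summed to 12.2 CPM with brequinar and 34.3 CPM with vehicle, with both tested ones, Pecam1 and Pdgfrb, lower. The markers below the filter also summed the opposite way for endothelial and stromal cells (6 genes, 2.97 CPM with brequinar and 2.22 CPM with vehicle) and for B and plasma cells (4 genes, 3.64 and 1.698 CPM in the same order). The part of these cells and of maturation in the members' ratios was not tested.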

How the data were processed

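RNA was measured by poly(A)-selected, strand-preserving sequencing of paired ends of 101 bases, per the labels' protocols. The authors deposited raw counts per gene for both libraries in a single table. The submitters' processing notes name STAR 2.4.2a, Picard 1.99, Picard 2.2.4 and the build mm10. How reads were counted, with which strand setting and annotation, is not given in the sources used here, so genes on opposite strands may share reads. Reads that name no gene (20.2% in the brequinar library, 21.6% in the vehicle library) stayed out. Multimapping reads made 6.92% and 7.39% in the same order.

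Symbols, lengths and overlaps came from GENCODE M21 (GRCm38). Library scaling used TMM factors from edgeR 4.0.16 under R 4.3.3. Log2 ratios use a prior count of 2. With 1 library per group edgeR's test has no residual freedom, so a gene is called at 2-fold. Ratio intervals are Clopper-Pearson, level intervals Poisson, and gene-pair intervals use the log odds ratio. Python 3.11.15, numpy 2.4.6, pandas 2.3.3, scipy 1.17.1 and matplotlib 3.10.9 were used. The procedure was tested on counts simulated with counting error alone, which hold no spread between animals and cannot check the calls against it. Members, lists and tests were chosen with earlier results of these data known. Up to 3 genes with the largest absolute ratio were named per pathway list and 2 per marker list, and Rrm2b, Dctd, Tk2, Dguok, Cmpk2, Ccnf and Dhodh always. Hoxa9 and Meis1 were named outside this rule, as were listed genes without counts in a library. Of the list names, Mpv17, Pnp, Mb21d1 and Sting1 were not matched (the last pair are other names of Cgas and Tmem173, which were), and a few genes are not reported here.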

Additional observations from a re-analysis of the deposited data

How the results depend on the processing

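Samhd1 remained the single member past 2-fold, and none was past it downwards, under every scaling (total counts, DESeq2 1.42.0 size factors, upper quartile), prior count (0.5 and 5) and filter tried. No member's log2 ratio changed sign, and scaling by total counts lowered each by 0.092. At 1.5-fold 4 members were higher and 1 lower, with 1456 genes higher and 1463 lower in all, against 742 and 506 at 2-fold. At 3-fold 0 members were higher, with 390 genes higher and 161 lower. Without a filter 2470 genes were higher and 2074 lower, and under a filter at 5 CPM 457 and 230, since the number of genes tested changed. With total counts the split was 662 higher and 632 lower. The members' median lay 0.22 above that of the replication genes and -0.40 relative to the G2 and mitosis genes, so its sign depends on the yardstick.

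The median of all genes turned to -0.091 with total counts, -0.0033 with DESeq2 size factors, -0.033 with upper quartile scaling and -0.015 without a filter. The salvage list turned to -0.075, -0.017 and -0.18 (total counts, upper quartile, no filter), the checkpoint list to -0.038 and the restriction list to -0.019 with total counts, and without a filter the B cell list to 0.30 and the T cell list to 0.20. Leaving out genes whose exons overlap another gene, chosen after seeing the data, moved 6 list medians by over 0.1 and turned none. No paired analysis was possible because each group has 1 library. With 1 library per group, spread between animals is unknown, and depth limits genes with few counts, such as Upp1.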
